A study of Mus musculus with 6 samples.

Results

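Transcripts of 9 genes for salt transport in the thick ascending limb and the distal convoluted tubule were followed in mouse kidneys after cisplatin. The genes, Umod, Slc12a1, Kcnj1, Bsnd, Slc12a3, Kcnj10, Wnk4, Klhl3 and Stk39, were taken by symbol from a table of 19087 genes, and all 9 passed the filter on low counts that left 14392 genes for testing. RNA of kidney tissue was sequenced in 6 wild-type (WT) samples, 3 treated with cisplatin by intraperitoneal injection to cause acute kidney injury and 3 labelled as controls. Cisplatin is a platinum-based anticancer drug known to injure kidney tubules. The series asked which molecules make mice on a high-fat diet prone to acute kidney injury. Strain, age, sex, diet, dose, time after injection and any vehicle given to the controls are not stated in the labels. Whether samples of a group are separate animals is not stated either, and the tests therefore weigh only the spread among these libraries, part of which may be technical.

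The thick ascending limb takes up sodium, potassium and chloride from the tubule fluid without water, and the distal convoluted tubule behind it takes up sodium and chloride. In both segments a cotransporter in the luminal membrane carries the salt in, potassium channels return potassium, and chloride leaves through channels on the blood side. WNK kinases, the kinase SPAK and an ubiquitin ligase that holds KLHL3 set how active the cotransporters are. Inherited salt-wasting disorders in humans, Bartter and Gitelman syndromes, come from loss of several of these genes.

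RefSeq windows upstream of an annotated transcription start (build GRCm38.p6) were at hand for 8 of the 9 genes, all but Bsnd. The 3 shown are those of uromodulin and of the 2 cotransporters, the genes that carry the comparison between segments, and each runs 5′ to 3′ over the 250 bases before the start. The start is that of the RefSeq table. For Umod it is the gene's outer end, while for Slc12a1 and Slc12a3 it lies 90 and 99 bases inside the gene spans printed with their values. Capitals mark a match to a searched motif. They lie at chr7:119479263-119479512 (minus strand), chr2:125152350-125152599 (plus strand) and chr8:94328958-94329207 (plus strand).
Umod: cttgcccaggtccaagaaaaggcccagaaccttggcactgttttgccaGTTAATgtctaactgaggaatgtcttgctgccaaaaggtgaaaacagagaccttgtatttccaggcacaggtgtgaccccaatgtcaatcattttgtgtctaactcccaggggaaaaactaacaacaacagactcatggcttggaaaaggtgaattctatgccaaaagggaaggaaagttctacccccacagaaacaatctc
Slc12a1: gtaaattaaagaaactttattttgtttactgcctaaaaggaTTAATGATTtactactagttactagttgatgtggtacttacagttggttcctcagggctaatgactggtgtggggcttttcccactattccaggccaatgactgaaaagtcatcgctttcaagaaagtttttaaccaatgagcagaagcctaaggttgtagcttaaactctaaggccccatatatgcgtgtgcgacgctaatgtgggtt
Slc12a3: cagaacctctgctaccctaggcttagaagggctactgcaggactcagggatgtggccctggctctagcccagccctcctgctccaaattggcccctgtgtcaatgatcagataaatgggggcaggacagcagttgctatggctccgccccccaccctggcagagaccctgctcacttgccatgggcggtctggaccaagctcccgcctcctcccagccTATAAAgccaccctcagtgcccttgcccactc

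The 4 motifs searched, on both strands, were the HNF1 half-site GTTAAT, the HNF1 core TTAATNATT, the TATA box TATAAA and the half-site of estrogen-related receptors AAGGTCA. The HNF1 half-site and core share letters and can overlap. GTTAAT stood 202 to 197 bases upstream of the start of the Umod window, TTAATNATT 209 to 201 bases upstream of that of Slc12a1, and TATAAA 32 to 27 bases upstream of that of Slc12a3. The TATAAA match therefore lies within the printed span of Slc12a3. Each of these motifs matched 1 of the 8 windows and AAGGTCA matched 0. Among the windows not shown, the starts for Kcnj1 and Klhl3 lie 21567 and 9830 bases inside the gene spans. Of all 32851 windows of this length, 6.43% held GTTAAT, 1.40% TTAATNATT, 12.4% TATAAA and 4.08% AAGGTCA. A match describes the letters in the window and shows neither a bound site nor a cause.

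All 9 genes were lower in cisplatin-treated kidneys, by 1.44-fold (Stk39) to 3.72-fold (Slc12a3), and each passed an adjusted p of 0.05 (quasi-likelihood test of edgeR). Of all tested genes, 22.2% were called lower, but the 9 genes were chosen with earlier results of these data known. For each of the 9 genes the highest cisplatin value was under the lowest control value, as held for 28.4% of all tested genes. The median log2 fold change (cisplatin over control) was -1.40 over the 9 genes and 0.01 over all tested genes. Levels below are CPM, counts scaled to library totals after TMM normalization, as mean ± SD with n = 3 per group. The SE of a log2 fold change was derived from the edgeR test, as its absolute value over the square root of the F statistic. In bulk kidney tissue, fewer cells of a type and less RNA per cell cannot be told apart.

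**Figure D1:**
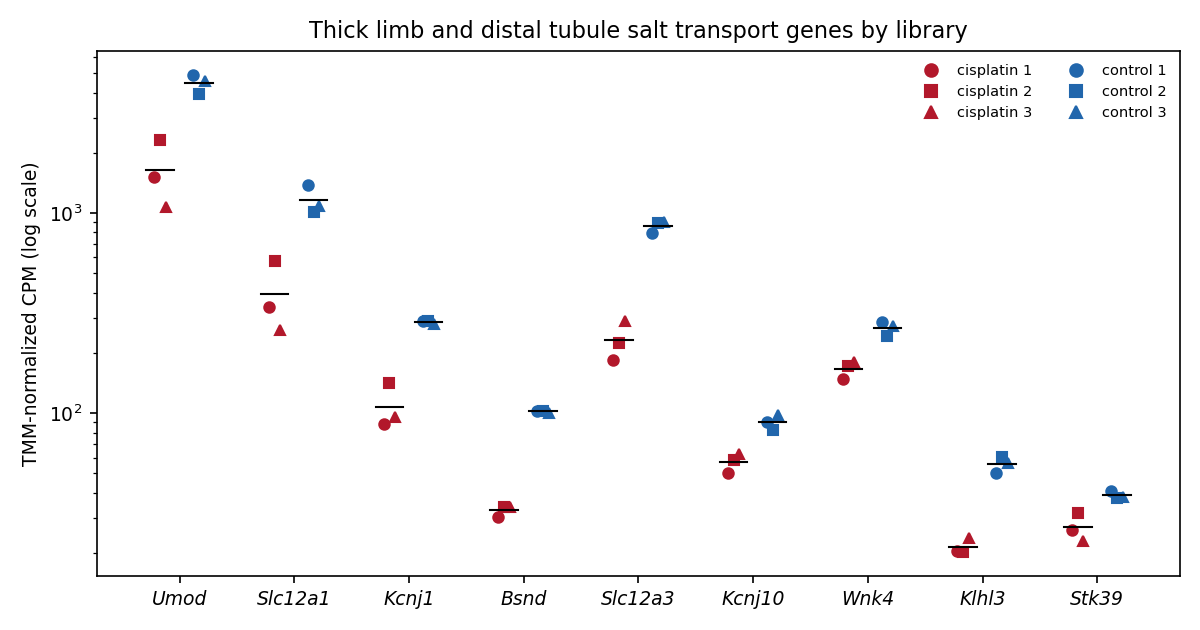
Level of the 9 salt transport genes (TMM-normalized CPM, log axis) in each library, with cisplatin in red to the left of control in blue, a marker shape for each replicate number and a black line at the group mean. In every gene the 3 cisplatin points lie below the 3 control points, and Umod and Slc12a1 spread most within cisplatin.

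Umod encodes uromodulin, the main protein of normal urine, which thick limb cells secrete (Entrez 22242, chromosome 7, 119462708 to 119479262). It was read at 1510.3, 2325 and 1068 CPM in cisplatin replicates 1 to 3, against 4918, 3948 and 4582 CPM in control replicates 1 to 3. The groups did not overlap, but the highest cisplatin library, replicate 2, stood 2.18-fold above the lowest, replicate 3. Means were 1634 ± 638 CPM in cisplatin and 4482 ± 493 CPM in controls, a log2 fold change of -1.46 with an SE of 0.27 (adjusted p = 0.00357 in edgeR). Umod took 0.107% to 0.250% of all counts in cisplatin libraries and 0.372% to 0.471% in controls. By mean TPM (a level scaled to transcript length and library) it was the 110th gene of the table in cisplatin and the 20th in controls. Exons of Umod share 539 bases with the antisense gene Gm44588, and the sources used here do not give whether counting used strand.

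Slc12a1 encodes NKCC2, the sodium-potassium-chloride cotransporter of the thick limb and the target of loop diuretics (Entrez 20495, chromosome 2, 125152510 to 125230002). Its level was 338, 579 and 260.4 CPM in cisplatin replicates 1 to 3, against 1383, 1014 and 1089 CPM in the controls. As with Umod, replicate 2 was the highest cisplatin library and replicate 3 the lowest, and no cisplatin value reached a control value. The log2 fold change was -1.57 (SE 0.30; edgeR adjusted p = 0.00505), from 392 ± 166 CPM in cisplatin and 1162 ± 195 CPM in controls.

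Kcnj1 encodes ROMK, the luminal channel that returns potassium to the tubule fluid so that NKCC2 can run (Entrez 56379, chromosome 9, 32372418 to 32399197). It was found at 88.8, 141 and 95.4 CPM in cisplatin replicates 1 to 3, and at 289, 289 and 279 CPM in controls. Replicate 2 was again the highest cisplatin library, while the controls differed little. The log2 fold change was -1.40 (SE 0.17; edgeR adjusted p = 0.000492).

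Bsnd encodes barttin, the subunit that carries the chloride channels of both segments to the cell surface (Entrez 140475, chromosome 4, 106483456 to 106492243). Cisplatin replicates 1 to 3 had 30.2, 34.0 and 33.9 CPM, against 103, 103 and 100.3 CPM in controls. This was the tightest gene of the 9: its cisplatin libraries spanned 0.17 on the log2 scale, against 1.15 for Slc12a1. Means were 32.7 ± 2.19 CPM in cisplatin and 102 ± 1.71 CPM in controls, a log2 fold change of -1.64 with an SE of 0.07 (adjusted p = 2.95e-06 in edgeR).

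Slc12a3 encodes NCC, the thiazide-sensitive sodium-chloride cotransporter that defines the distal convoluted tubule (Entrez 20497, chromosome 8, 94329109 to 94366222). It had the largest fall of the 9 genes, with 185, 224 and 288 CPM in cisplatin replicates 1 to 3, against 792, 895 and 907 CPM in controls. Here replicate 3 was the highest cisplatin library and replicate 1 the lowest, with no overlap between groups. The log2 fold change was -1.90 (SE 0.16; edgeR adjusted p = 7.96e-05), with 232 ± 52.2 CPM in cisplatin and 865 ± 63.0 CPM in controls.

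Kcnj10 encodes Kir4.1, a potassium channel on the blood side of the distal convoluted tubule (Entrez 16513, chromosome 1, 172341210 to 172374085). Its fall was smaller, to 50.2, 58.5 and 62.8 CPM in cisplatin replicates 1 to 3, against 90.6, 82.0 and 97.5 CPM in controls. Replicate 3 was the highest cisplatin library, as for Slc12a3, and stood below the lowest control. The log2 fold change was -0.66 (SE 0.10; edgeR adjusted p = 0.00139).

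The 3 regulators of the cotransporters were also lower, Klhl3 by the most. Wnk4 encodes a WNK kinase that acts on NCC through SPAK (Entrez 69847, chromosome 11, 101260537 to 101277409). It had 149, 173 and 181 CPM in cisplatin replicates 1 to 3 and 286, 243 and 272 CPM in controls, a log2 fold change of -0.67 with an SE of 0.10 (adjusted p = 0.00125 in edgeR). Wnk4 shares 306 exonic bases with the antisense gene Gm11615. Klhl3 encodes the adaptor that brings WNK kinases to a cullin-3 ubiquitin ligase (Entrez 100503085, chromosome 13, 58000226 to 58123477). Its values of 20.6, 20.3 and 23.7 CPM in cisplatin replicates 1 to 3 lay far below the 50.5, 60.1 and 56.1 CPM of controls (log2 fold change -1.37, SE 0.10; edgeR adjusted p = 3.03e-05). Stk39 encodes SPAK, the kinase that phosphorylates NKCC2 and NCC (Entrez 53416, chromosome 2, 68210445 to 68472108). It had the smallest fall, with 26.1, 31.6 and 23.1 CPM in cisplatin replicates 1 to 3 and 40.8, 37.5 and 38.3 CPM in controls (log2 fold change -0.53, SE 0.11; edgeR adjusted p = 0.00619). Replicate 2 was the highest cisplatin library for Stk39 and replicate 3 for Wnk4 and Klhl3. For Stk39 the groups overlapped in TPM, where cisplatin replicate 2 (22.4 TPM) exceeded control replicate 2 (21.0 TPM). The estimated counts of Klhl3 and Kcnj10 had decimals in every library, and how reads were shared out between genes is not stated.

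Within the cisplatin group the libraries did not rank alike for all 9 genes. Umod, Slc12a1 and Stk39 were lowest in cisplatin replicate 3 and highest in replicate 2. Slc12a3, Kcnj10 and Wnk4 were lowest in cisplatin replicate 1 and highest in replicate 3. Kcnj1, and Bsnd of both segments, had neither order, with the lowest level in replicate 1. Kcnj1 was highest in replicate 2, while Bsnd was nearly equal in replicates 2 and 3 (34.0 and 33.9 CPM). Klhl3 was highest in replicate 3 and lowest in replicate 2, though close to replicate 1 (20.3 and 20.6 CPM). Relative to the mean log2 level of controls, Umod lay at -1.56, -0.94 and -2.06 in cisplatin replicates 1 to 3, and Slc12a3 at -2.23, -1.94 and -1.58. The marker lists of the 2 segments hold Umod, Slc12a1 and Slc12a3 themselves, and Egf is in both lists. Of 7 thick limb markers, 6 were highest in cisplatin replicate 2 and 5 lowest in replicate 3. Of 6 distal convoluted tubule markers, 5 were highest in replicate 3 and 6 lowest in replicate 1. Apart from Umod and Slc12a1, the thick limb markers Cldn10, Ptger3 and Tmem207 were lowest in replicate 3, and Cldn16 and Egf in replicate 1. Apart from Slc12a3, the distal convoluted tubule markers Pvalb, Trpm6, Calb1 and Sall3 were highest in replicate 3, and Egf in replicate 2. These orders were noticed after the values were seen, rest on 3 libraries and were not tested. The same cisplatin replicate 3 had the lowest level of the proximal injury marker Havcr1, 420.2 CPM, against 1059.8 and 1449 CPM in cisplatin replicates 1 and 2. Summed markers of proximal tubule (4023, 2893 and 5949 CPM in cisplatin replicates 1 to 3) and of connecting tubule (2625, 2616 and 3281 CPM) were also highest in replicate 3. Most of the connecting tubule sum was Klk1 (2438, 2339 and 2959.7 CPM). Sums of principal cells (396, 490 and 482 CPM in cisplatin replicates 1 to 3) and of intercalated cells (294, 367 and 333 CPM) were instead highest in replicate 2. The part of injury in these orders was not tested.

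**Figure D2:**
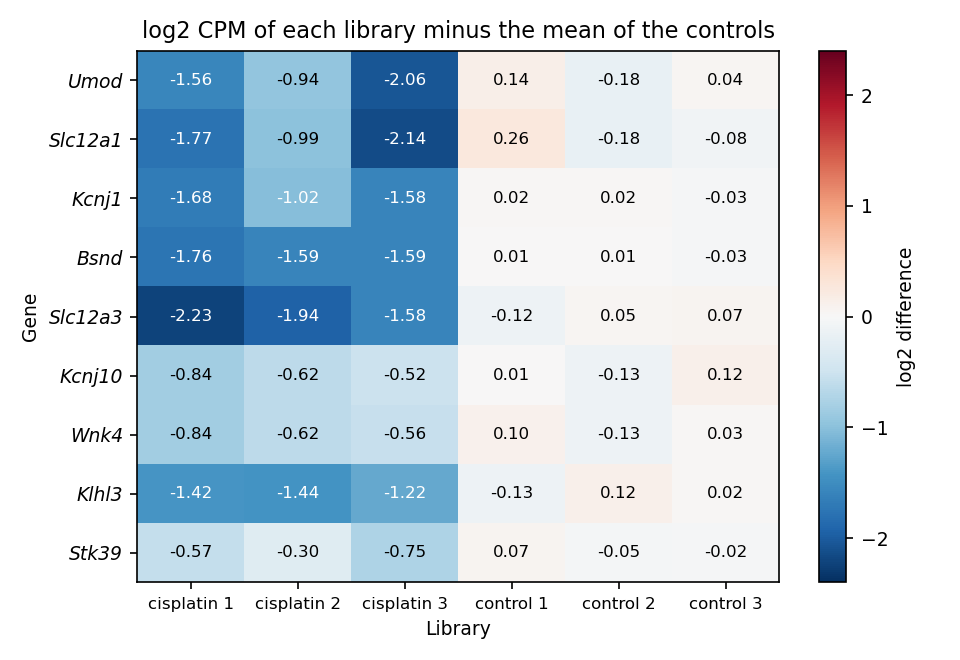
Difference in log2 CPM between each library (columns, cisplatin left of control) and the mean of the 3 controls, for each salt transport gene (rows), printed in the cells and coloured from blue (lower) to red (higher). The lowest cell in Umod is cisplatin replicate 3 at -2.06, whereas in Slc12a3 it is cisplatin replicate 1 at -2.23.

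Levels of different genes were compared as TPM. In cisplatin kidneys Umod averaged 1184 ± 511 TPM, Slc12a1 159 ± 73.7, Slc12a3 131 ± 23.1, Wnk4 81.7 ± 6.89, Kcnj1 66.3 ± 19.7, Bsnd 22.6 ± 1.62, Kcnj10 19.6 ± 1.72, Stk39 18.1 ± 4.0 and Klhl3 5.81 ± 0.20 TPM. In control kidneys the order was Umod 2705 ± 355, Slc12a3 412 ± 31.0, Slc12a1 392 ± 71.0, Kcnj1 146 ± 3.05, Wnk4 112 ± 10.8, Bsnd 59.4 ± 1.25, Kcnj10 26.1 ± 2.98, Stk39 22.6 ± 1.56 and Klhl3 12.7 ± 0.871 TPM. The ranges of Slc12a1 and Slc12a3 overlapped in both groups, as did those of Kcnj10 and Stk39. In cisplatin, Bsnd (21.3 to 24.4 TPM) also overlapped Stk39 (14.4 to 22.4 TPM). Wnk4 and Kcnj1 overlapped in cisplatin, at 74.0 to 87.2 and 54.5 to 89.0 TPM, while in controls Kcnj1 lay above Wnk4 in every library.

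Ratios within a library were used to compare the falls of pairs of genes. The ratio of Klhl3 to Wnk4 in TPM was 0.0772, 0.0651 and 0.0720 in cisplatin replicates 1 to 3, against 0.0976, 0.133 and 0.112 in controls. These groups did not overlap, and the mean log2 ratio was lower in cisplatin by 0.67, with values of -3.81 ± 0.12 in cisplatin and -3.14 ± 0.22 in controls. A two-sided exact permutation test returned p = 0.1 (0.3 adjusted over the 3 ratios computed), and 3 against 3 samples can give no smaller value. The ratio of Umod to Slc12a1 was 7.99, 7.19 and 7.34 in cisplatin and 6.36, 6.98 and 7.53 in controls, so the groups overlapped (exact permutation p = 0.3, adjusted 0.45). The ratio of Slc12a3 to Slc12a1 was 0.774, 0.550 and 1.57 in cisplatin replicates 1 to 3, and 0.811, 1.25 and 1.18 in controls. Its cisplatin values reached both below and above all controls, and the log2 difference of -0.28 was smaller than the SD of 0.77 within cisplatin (exact permutation p = 0.6, adjusted 0.6). That difference was 0.05 without cisplatin replicate 2 and -0.70 without cisplatin replicate 3, so its direction rested on single libraries.

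**Figure D3:**
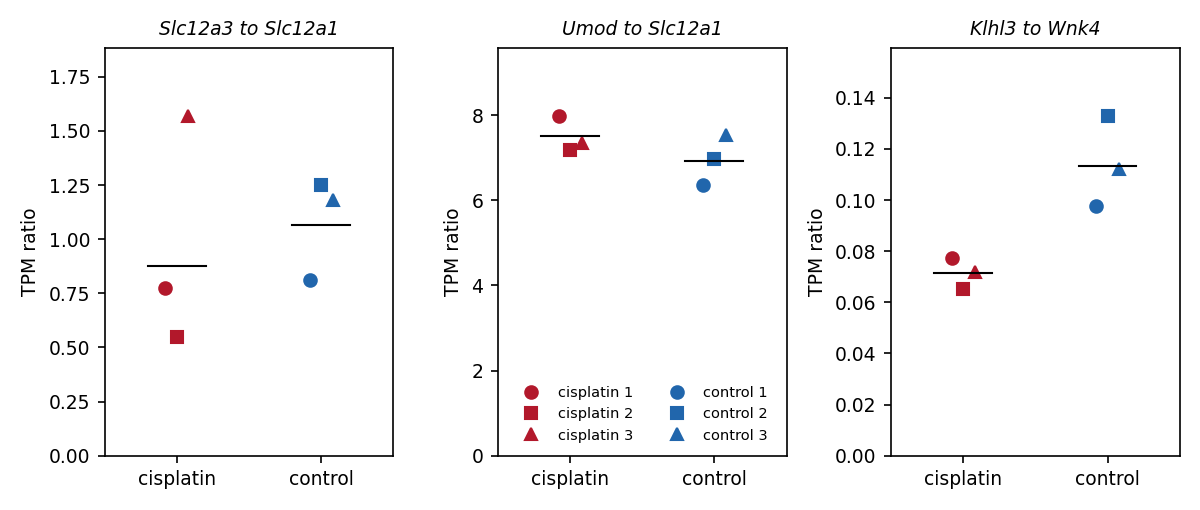
Ratio of TPM values within each library for 3 pairs of genes, cisplatin left of control on linear axes from 0, with a marker shape for each replicate number and a line at the geometric mean. Only in the ratio of Klhl3 to Wnk4 do the groups separate, at 0.0651 to 0.0772 in cisplatin and 0.0976 to 0.133 in controls.

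Of 42 other genes listed for these cells, 40 were tested, and 24 were lower and 5 higher in cisplatin (edgeR adjusted p under 0.05), with a median log2 fold change of -0.61. The listed genes are not limited to these segments (Avpr2 is also among the principal cell markers), and bulk tissue does not show which cells their RNA came from. Among all tested genes 22.2% were called lower and 23.1% higher, but the lists were chosen with earlier results of these data known. Cldn14 and Wnk3 were under the count filter.

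Channels, pumps and exchangers had 8 of 15 tested genes lower and none higher by edgeR, against 22.2% lower and 23.1% higher of all tested genes. The largest log2 fold change in the list was -0.01. The number lower was 6 with library size scaling or limma on FPKM, 10 with DESeq2, and 6 to 9 with a library left out, and 0 were higher in each of these. Fxyd2, which encodes the gamma subunit of the sodium pump, had 1809 ± 113 CPM in cisplatin and 3771 ± 474 CPM in controls (log2 fold change -1.06; edgeR adjusted p = 0.000592). Trpm6, which encodes the magnesium channel of the distal convoluted tubule, fell to 9.25 ± 1.78 CPM in cisplatin, against 18.9 ± 1.41 CPM in controls (-1.04, or -0.61 with limma on log2(FPKM + 1); edgeR adjusted p = 0.000904).

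Among kinases and ligase parts, 5 of 10 tested genes were lower and 2 higher, against 22.2% lower and 23.1% higher of all tested genes. Ppp1r1a, which encodes a protein phosphatase 1 inhibitor, had the largest fall of this list, to 96.8 ± 28.3 CPM in cisplatin, against 343 ± 22.9 CPM in controls (log2 fold change -1.82; edgeR adjusted p = 0.000353). The genes of 2 further WNK kinases were lower. Wnk1 had 235 ± 18.4 CPM in cisplatin and 393 ± 32.2 CPM in controls (-0.74; edgeR adjusted p = 0.000703), and Wnk2 2.60 ± 0.303 CPM in cisplatin and 5.45 ± 1.24 CPM in controls (-1.07, or -0.33 with limma on log2(FPKM + 1); edgeR adjusted p = 0.00422). Cul3, the cullin of the KLHL3 ligase, differed by little, with 98.0 ± 6.66 CPM in cisplatin and 121 ± 5.56 CPM in controls (-0.31; edgeR adjusted p = 0.0133). Its call was lost without control replicate 1 (adjusted p = 0.053 in edgeR). Oxsr1, which encodes the SPAK-related kinase OSR1, was slightly higher, at 47.8 ± 3.41 CPM in cisplatin and 40.7 ± 1.26 CPM in controls (0.23; edgeR adjusted p = 0.0353). Nedd4l, an ubiquitin ligase gene that overlaps the antisense gene A330084C13Rik, had 136 ± 1.91 CPM in cisplatin and 117 ± 5.46 CPM in controls (0.22; edgeR adjusted p = 0.0343). Leaving out either cisplatin replicate 1 or 2, or any control replicate, ended both of these calls.

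Receptors and hormone targets had 7 of 10 genes lower and 2 higher, against 22.2% lower and 23.1% higher of all tested genes. Egf, the epidermal growth factor precursor of thick limb and distal convoluted tubule, fell further than any of the 9 salt transport genes, to 100.4 ± 31.1 CPM in cisplatin, against 1465 ± 183 CPM in controls (log2 fold change -3.87, SE 0.24; edgeR adjusted p = 2.75e-05). Egf overlaps the antisense genes Gm42697 and 6330410L21Rik. Its receptor gene Egfr rose to 83.7 ± 5.07 CPM in cisplatin, against 45.1 ± 2.33 CPM in controls (0.89; edgeR adjusted p = 7.73e-05). Calcr, the calcitonin receptor gene, had 1.74 ± 1.42 CPM in cisplatin and 0.451 ± 0.180 CPM in controls (1.95; edgeR adjusted p = 0.0481). The Calcr call was lost without cisplatin replicate 1 or 2 or any control replicate, and its log2 fold change was 1.06 without cisplatin replicate 2.

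Of hepsin and 4 further membrane proteins, 4 genes were lower and 1 higher, against 22.2% lower and 23.1% higher of all tested genes. Tmem207 had 5.33 ± 3.05 CPM in cisplatin and 16.8 ± 3.55 CPM in controls (log2 fold change -1.64; edgeR adjusted p = 0.0110), and Tmem72 29.5 ± 6.81 CPM in cisplatin and 81.9 ± 7.23 CPM in controls (-1.47; edgeR adjusted p = 0.000309). Muc1, which encodes a membrane mucin of the distal nephron, rose to 72.0 ± 17.5 CPM in cisplatin, against 29.2 ± 3.62 CPM in controls (1.30; edgeR adjusted p = 0.00112).

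**Figure D4:**
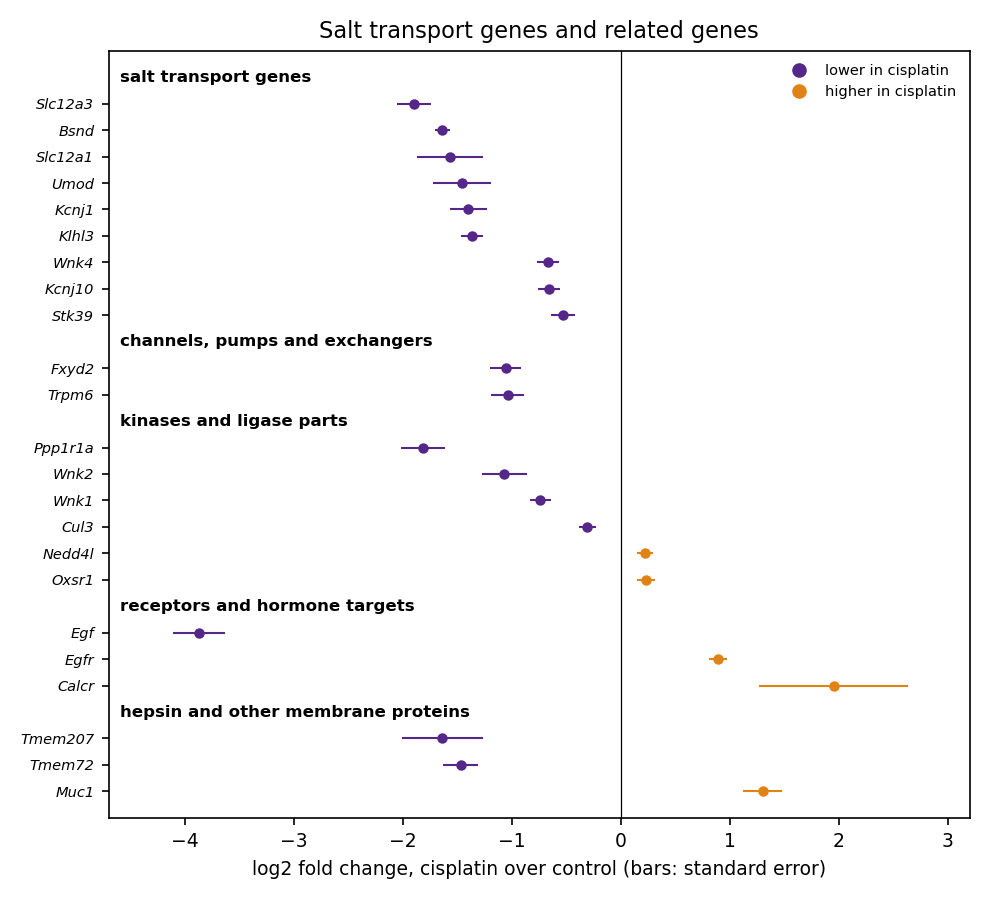
Log2 fold change (cisplatin over control) with its standard error for the 9 salt transport genes and 14 related genes described in the text, by list, in purple where lower and orange where higher. All 9 salt transport genes lie between -1.90 and -0.53, and Egf lies farthest left at -3.87.

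Marker lists of nephron segments moved by different amounts. For comparison, 22.2% of all tested genes were called lower and 23.1% higher, and the markers were chosen with earlier results of these data known. Distal convoluted tubule markers were lower in 6 of 6 genes, summing to 377 to 615 CPM in cisplatin and 2619.7 to 2859 CPM in controls. Pvalb, a marker of the early part of that segment, had 0.906 ± 0.450 CPM in cisplatin and 33.3 ± 4.75 CPM in controls (log2 fold change -5.21; edgeR adjusted p = 7.56e-06). Thick limb markers were lower in 5 of 7 genes (1544 to 3216 CPM in cisplatin, 6558 to 8282 CPM in controls), with Cldn16 and Ptger3 not called. Umod and Slc12a1 are in the thick limb list, Slc12a3 is in the distal convoluted tubule list, and Egf is in both. In control replicate 1, Umod (4918 CPM) was most of the thick limb sum (8282 CPM). Egf (1675 CPM) was most of the distal convoluted tubule sum (2859 CPM) there. These sums are therefore not separate from the values of the salt transport genes. Connecting tubule markers were lower in 3 of 4 genes and higher in 1 (2616 to 3281 CPM in cisplatin and 4248 to 4925 CPM in controls). Of the lower ones, Calb1 is also in the distal convoluted tubule list. The higher one was Trpv5 (log2 fold change 1.26, edgeR adjusted p = 0.000227). Principal cell markers were lower in 3 of 6 and higher in 1 (396 to 490 CPM in cisplatin and 528 to 538 CPM in controls). Intercalated cell markers were lower in 1 of 6 genes and higher in 2, and their sums overlapped, at 294 to 367 CPM in cisplatin and 289 to 329.8 CPM in controls. Proximal tubule markers were lower in 6 of 7 genes (2893 to 5949 CPM in cisplatin and 13033 to 13426 CPM in controls). Tubule injury markers were higher in 4 of 4 genes, summing to 834 to 2409.7 CPM in cisplatin and 20.3 to 29.3 CPM in controls. No marker named in these lists was without counts in either group, and the part of cell loss or injury in the falls of the salt transport genes was not tested.

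Genes whose log2 CPM followed that of Umod most closely over the 6 libraries, among 11392 genes of at least 5 CPM, were Mcph1 (Pearson r = 0.9993), Cdh16 (0.9989) and Hspg2 (0.9985). Those closest to Slc12a3 were Suds3 (0.9994), Syngr1 (0.9986) and Ipcef1 (0.9986). The libraries fall into 2 groups and share their scaling, so each r includes the gap between groups and is given as a description. Cdh16, which encodes a kidney-specific cadherin, had 1011 ± 119 CPM in cisplatin and 1444 ± 62.2 CPM in controls, a log2 fold change of -0.51, so its pattern was like that of Umod but its fall was smaller.

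For the series as a whole, library totals were between 16725665 and 18523666 estimated counts, and 3201 genes were called lower and 3326 higher. With TMM scaling 51.0% of called genes were higher, and with scaling to library size alone 67.0%, where the median log2 fold change of all genes was 0.14 in place of 0.01. The 9 salt transport genes stayed lower and called under both, with a median log2 fold change of -1.26 under library size scaling.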

How the data were processed

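Bulk RNA sequencing covered kidneys from 3 cisplatin and 3 control samples. Reads were aligned with HISAT to GRCm38.p6, per the submitters' processing notes. The sources used here do not give the counting program, annotation or strandedness. A single deposited table holds all libraries. Its estimated counts, so deposited, carry no normalization, and 66.2% to 67.7% of values per library were exactly whole, with no tolerance. The FPKM deposited by the authors are scaled to transcript length and library size, and entered only an alternative test. The TPM deposited by the authors sum to the same total per library, and were used for levels between genes and for ratios. The headers of control columns give initials with a number, and were taken as the wild-type control so numbered.

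Estimated counts were rounded, filtered with filterByExpr (minimum count 10), scaled with TMM and tested with edgeR 4.0.16 (quasi-likelihood, robust, group as the only term) in R 4.3.3, with Benjamini-Hochberg adjustment over all 14392 tested genes; the fit was tested on simulated data. Replicate pairs differed by 8.66 to 53.2 times sampling variance. The lowest estimated count of a salt transport gene was 401.29, so counting error is small. Members, related lists, markers, motifs and tests were chosen with earlier results of these data known. From each related list the text names the 2 called genes that changed most (from 1 CPM up), with called genes of the rarer direction where 2 or fewer, and Wnk1, Oxsr1 and Cul3 whatever their values; some genes of the lists are counted but not reported here. Alternatives were other scalings, no filter, DESeq2 1.42.0, limma 3.58.1 on log2(FPKM + 1) and log2(FPKM + 0.1), a replicate block and leaving out each library. Promoter windows and positions are RefSeq's (GRCm38.p6), and exon overlaps GENCODE M21's. Markers of endothelium (4 of 4 lower), podocytes (4 of 5 higher), fibroblasts (2 of 4 higher), macula densa (2 of 3 higher, 1 lower), immune cells (1 of 5 tested higher, 1 lower) and erythroid cells (2 of 2 lower) were also counted. Of all tested genes, 22.2% were lower and 23.1% higher. The erythroid markers summed to 0.303 to 0.507 CPM in cisplatin and 35.8 to 518 CPM in controls. Whether blood content or handling differed between the groups was not tested.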

Additional observations from a re-analysis of the deposited data

How the results depend on the processing

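All 9 salt transport genes were called lower under each of the 13 alternatives, with their least fold change between -0.66 and -0.39 on the log2 scale and a largest adjusted p of 0.0412 (Stk39, library size only). Counts of lower genes moved by less than 1.5 times: 20 to 26 related genes against 24, 6 to 10 channels, pumps and exchangers against 8, and 2281 to 3591 of all genes against 3201. Among kinases and ligase parts, higher genes numbered 3 with limma at either FPKM pseudocount, 1 with DESeq2, 1 with the replicate block, and 0 to 2 with a library left out, against 2. Among receptors they numbered 1 with no filter, 1 with limma at either FPKM pseudocount, and 1 to 2 with a library left out, against 2. Over all related genes they numbered 2 to 5 with a library left out, against 5. The log2 difference of the Slc12a3 to Slc12a1 ratio reversed to 0.05 without cisplatin replicate 2, in a range of -0.70 to 0.05 with a library left out; the cause was not tested. Cul3 was not called with library size scaling (log2 fold change -0.17, edgeR adjusted p = 0.0777). Calcr, a low gene, had log2 values of 0.40 and 1.27 on FPKM with pseudocounts of 1 and 0.1. Log2 fold changes of Oxsr1 and Nedd4l were 0.37 and 0.35 with library size scaling.

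No label states that libraries of the same number are paired. Deviations of same-numbered libraries correlated at 0.031, -0.135 and -0.129. Cisplatin replicate 1 correlated best with the control of its own number (0.031, against -0.015 and -0.015), and cisplatin replicates 2 and 3 with a control of another number. With 3 libraries a group, these values cannot decide whether a pairing or shared batch exists. With the replicate block 2822 genes were higher and 2739 lower, against 3326 and 3201, and the calls of Oxsr1 and Nedd4l were lost. With 3 samples a group, permutation tests of a ratio cannot pass 0.05.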
